A study of Mus musculus with 9 samples.

Results

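Hox genes were followed in cultured mouse sclerotome after exposure to BMP4 or TGF-β1. A probe set of the array was taken as a Hox probe set when it carried a single gene symbol made of Hox, a cluster letter from a to d and a paralog number. By this rule 48 probe sets stood for 33 of the 39 Hox genes in the annotation, out of 18193 genes with a probe set of their own. The Hoxa cluster had 9 genes and 16 probe sets, Hoxb 9 genes and 11 probe sets, Hoxc 7 genes and 11 probe sets, and Hoxd 8 genes and 10 probe sets. The remaining 6 genes of the annotation were not analysed here. The cultures were micromass cultures, in which cells are plated as a dense drop, of ventral sclerotome from E11.5 mouse embryos without the notochord, kept in medium with serum, ascorbic acid and β-glycerolphosphate. The 3 groups were untreated cultures, cultures given 50 ng/ml BMP4 and cultures given 5 ng/ml TGF-β1, with 8 hours of treatment and 3 arrays in each group. The labels give no strain or sex, and they do not say how many embryos were pooled or which axial levels were taken. The embryos were wild type per the study's methods, which describe separate repeats of the whole experiment, and the labels do not say that a replicate number stands for the same repeat in each group.

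Hox proteins are homeodomain transcription factors that give cells along the head to tail axis a regional identity. Their genes lie in 4 clusters on different chromosomes, and within a cluster the genes of low paralog number are expressed up to more anterior levels, and usually earlier, than those of high number. Genes of the same number in different clusters are paralogs with partly shared functions. In the sclerotome, which forms the vertebrae, ribs and the annulus fibrosus of the intervertebral disc, the combination of Hox genes sets which type of vertebra forms. BMP4 and TGF-β1 signal through different receptors and receptor-activated Smad proteins. For description, paralogs 1 to 3 are called anterior here (7 genes, 11 probe sets), 4 to 8 central (12 genes, 20 probe sets) and 9 to 13 posterior (14 genes, 17 probe sets).

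The promoters of called Hox genes are shown because both factors act on transcription through Smad proteins, which bind short DNA stretches. Windows of 250 bases before the annotated start, from RefSeq on the build GRCm38.p6, were at hand for 19 of the 33 Hox genes and for 6 of the 10 genes with a called probe set. Hoxb2, Hoxb3, Hoxb5 and Hoxb6 were not in that table. The letters GGCGCC, known from BMP-responsive enhancers, and CAGACA, the core of the Smad3 and Smad4 binding box, were searched on both strands. GGCGCC occurred in 9.59% of 32851 windows of all genes and in 5 of the 21 Hox windows, and CAGACA in 17.1% of all windows and in 3 of the 21. The windows of Hoxa2 (chr6:52164832-52165081, minus strand), Hoxd3 (chr2:74711743-74711992, plus strand) and Hoxa5 (chr6:52204588-52204837, minus strand) are printed 5′ to 3′ along the gene. Hoxa2 had the largest Hox fall against untreated cultures, and Hoxd3 and Hoxa5 were called lower with each factor. Capitals mark CAGACA in Hoxa2, which begins 101 bases before the start, and GGCGCC in Hoxd3, which begins 118 bases before it. Neither stretch was in the Hoxa5 window, nor in those of Hoxa3, Hoxa7 and Hoxd9, the other called genes with a window. A match of these letters is a description of the sequence and was not tested as a binding site.
Hoxa2: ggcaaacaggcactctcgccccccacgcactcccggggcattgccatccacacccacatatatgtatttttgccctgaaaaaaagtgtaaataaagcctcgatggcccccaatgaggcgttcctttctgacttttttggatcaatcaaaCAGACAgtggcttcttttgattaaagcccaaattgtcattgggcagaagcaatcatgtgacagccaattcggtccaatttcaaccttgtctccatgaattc
Hoxd3: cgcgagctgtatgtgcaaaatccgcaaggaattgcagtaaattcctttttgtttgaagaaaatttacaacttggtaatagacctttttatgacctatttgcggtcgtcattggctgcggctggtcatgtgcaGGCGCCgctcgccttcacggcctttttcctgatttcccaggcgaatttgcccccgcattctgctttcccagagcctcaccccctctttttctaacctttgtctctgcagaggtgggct
Hoxa5: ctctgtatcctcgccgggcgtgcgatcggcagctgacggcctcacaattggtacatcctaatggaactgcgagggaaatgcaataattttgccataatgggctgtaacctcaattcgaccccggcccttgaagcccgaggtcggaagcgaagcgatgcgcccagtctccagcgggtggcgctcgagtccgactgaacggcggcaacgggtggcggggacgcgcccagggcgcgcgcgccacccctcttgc

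The deposited values are on a log2 scale and each probe set is centred on its own median over the 9 arrays, so they give differences between arrays and not levels. A difference of 1 is a 2-fold change. Whether a Hox gene was well above background, and which Hox code the cultures carried, cannot be read from them. Over the 9 arrays the SD of a Hox probe set had a median of 0.167, against 0.149 for all probe sets, and 31 of the 48 (64.6%) varied more than the median probe set. Hox values lay between -0.75, for a Hoxa3 probe set on TGF-β1 replicate 3, and 0.94, for Hoxd1 on TGF-β1 replicate 2. Differences between groups were estimated with limma from all 9 arrays and called at an adjusted p under 0.05, with adjustment over 45037 probe sets. No Hox probe set was called with a change of 2-fold or more in any of the 3 comparisons, where 1.01% of all probe sets were called and at least 2-fold changed with BMP4, 0.562% with TGF-β1 and 1.25% between the 2 factors. In such cultures, fewer cells that express a gene and less RNA of it per cell cannot be told apart.

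**Figure D1:**
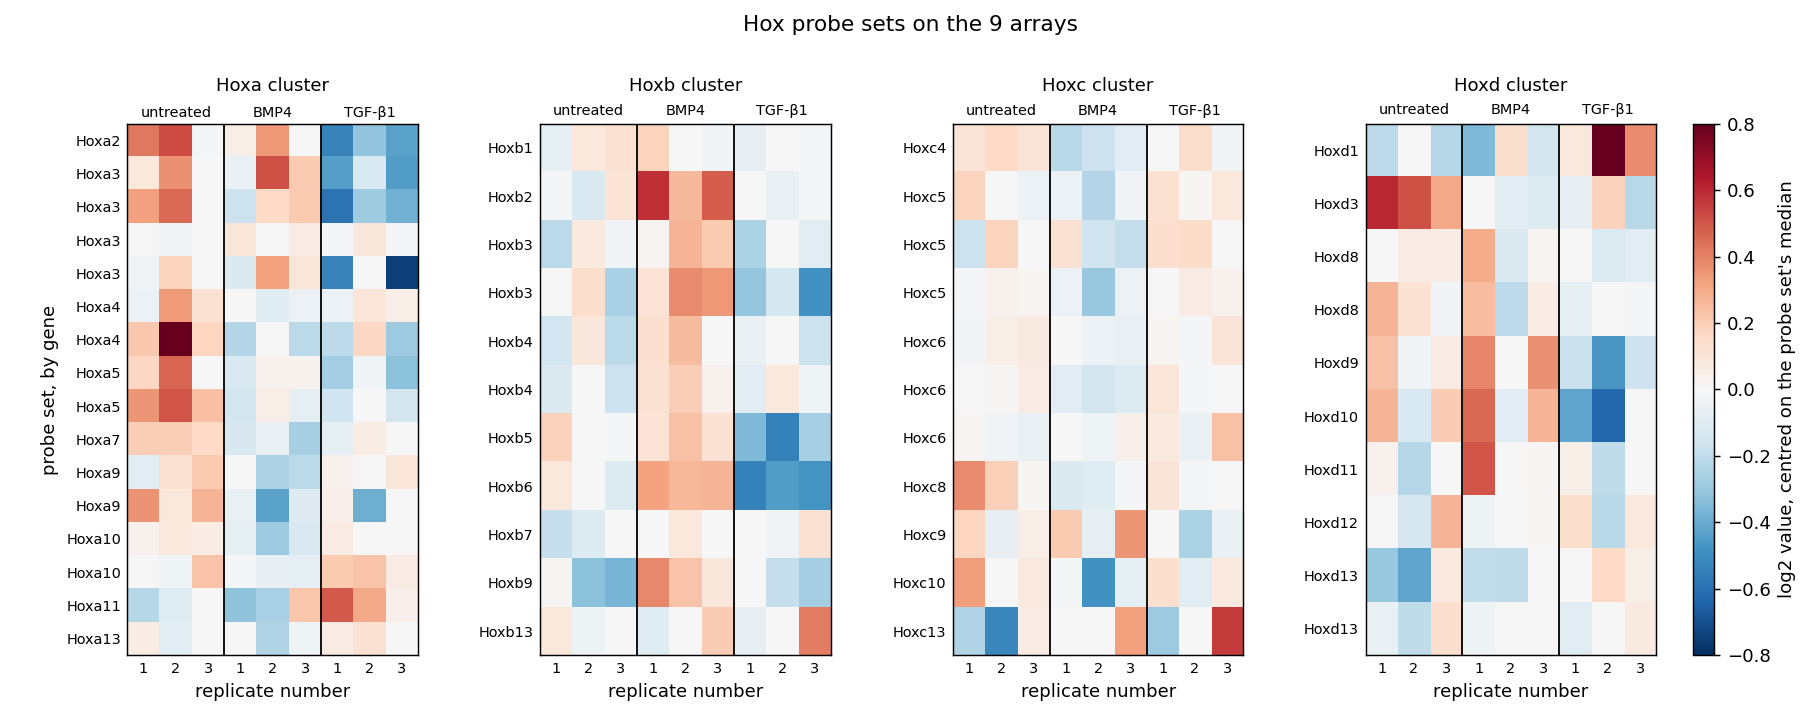
Log2 values of the 48 Hox probe sets on the 9 arrays, 1 panel for each cluster, with probe sets in rows by gene, arrays in columns by group and replicate number, and colour giving the value centred on the probe set's median over the arrays (colours saturate beyond 0.8 in size). Hoxb6 is the row with the clearest separation of the groups, near 0 in untreated cultures, between 0.27 and 0.32 with BMP4 and between -0.54 and -0.45 with TGF-β1.

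The question of the first comparison was how BMP4, a factor known to promote cartilage formation, moved the Hox genes. Hoxb2 rose, and Hoxa5, Hoxa7 and Hoxd3 fell, so 4 of 48 probe sets were called (8.33%), with 1 higher and 3 lower. Of all probe sets 5.44% were called, 2.31% higher and 3.13% lower. Hoxb2, which acts in hindbrain segments, read -0.02, -0.12 and 0.11 on untreated replicates 1, 2 and 3 and 0.58, 0.26 and 0.48 with BMP4. All BMP4 arrays lay above all untreated arrays for this gene. The rise was 0.45 ± 0.10 on the log2 scale (SE, 3 arrays a group), or 1.37-fold, with an adjusted p of 0.0255. That p lay between 0.0755 and 0.0988 without untreated replicate 1 or 2 or without BMP4 replicate 1 or 3.

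Hoxd3, a paralog group 3 gene needed for the first cervical vertebrae, read 0.60, 0.51 and 0.30 in untreated cultures and 0.00, -0.09 and -0.11 with BMP4, with no overlap. It fell by 0.54 on the log2 scale (SE 0.12), or 1.45-fold, with an adjusted p of 0.0241. Without untreated replicate 1 or 2, or without any one of the BMP4 arrays, its p lay between 0.061 and 0.0887. Hoxa5, which patterns the cervical to thoracic transition, read 0.36, 0.51 and 0.24 untreated and -0.15, 0.05 and -0.08 with BMP4. The groups were apart here too. Its fall was 0.43 on the log2 scale (log2 difference -0.43, SE 0.09, 1.34-fold lower, adjusted p 0.0257), and the p lay between 0.0723 and 0.102 without untreated replicate 1 or 2 or BMP4 replicate 1 or 3. The other Hoxa5 probe set, 1443803_x_at, moved by -0.23 ± 0.13 (SE) and did not pass (adjusted p 0.417). Hoxa7, a thoracic patterning gene, was tightly grouped without treatment at 0.20, 0.20 and 0.16, and read -0.13, -0.06 and -0.27 with BMP4. Its log2 difference was -0.34 ± 0.08 (SE), 1.26-fold lower, with an adjusted p of 0.0337. The call for Hoxa7 was lost in 7 of 9 fits with 1 array left out, all but those without TGF-β1 replicate 1 or 2, with p between 0.0506 and 0.101. Without untreated replicate 2, BMP4 replicate 1 or BMP4 replicate 3 no Hox probe set was called (3.88%, 3.36% and 4.62% of all were). Without untreated replicate 1 every call named above was lost, and the only 1 made was Hoxb9, higher (adjusted p 0.0282, with 3.66% of all called). Without BMP4 replicate 2 only 2 were called, Hoxb2 and Hoxa5 (3.18% of all).

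The clusters differed in the side of 0 on which their probe sets lay. All 11 Hoxb probe sets were above 0 with BMP4, with a median of 0.22 and a range from 0.01 to 0.46, whereas 13 of 16 Hoxa probe sets were below 0 (median -0.19) and 8 of 11 Hoxc probe sets were below 0 (median -0.14). Hoxd had 7 of 10 above 0 and a median of 0.03. By region, 8 of 11 anterior probe sets were above 0 with BMP4 (median 0.05), 7 of 20 central ones (median -0.12) and 9 of 17 posterior ones (median 0.02). Over all probe sets 22673 were above 0, 22364 below, and the median was 0.001. These are counts of correlated probe sets on the same arrays, and most of the members did not pass the test singly. The largest rise that did not pass on all 9 arrays without the replicate block was in Hoxb9, a gene of rib and thoracic identity. It rose by 0.46 ± 0.13 (SE, adjusted p 0.0662), with all BMP4 arrays (0.39, 0.23 and 0.09) above the untreated ones (0.02, -0.33 and -0.37). Hoxa4 (1427354_at), a cervical patterning gene, had the largest fall that did not pass in that fit, -0.55 ± 0.18 (SE, adjusted p 0.117), where untreated replicate 2 at 0.81 stood well above untreated replicates 1 and 3 at 0.22 and 0.17. Groups did not overlap, with BMP4 higher, for 4 Hox probe sets (8.33%, against 9.71% of all), and with BMP4 lower for 11 (22.9%, against 10.3% of all). At an unadjusted p under 0.05 there were 15 Hox probe sets, 31.2% of them, against 17.1% of all.

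**Figure D2:**
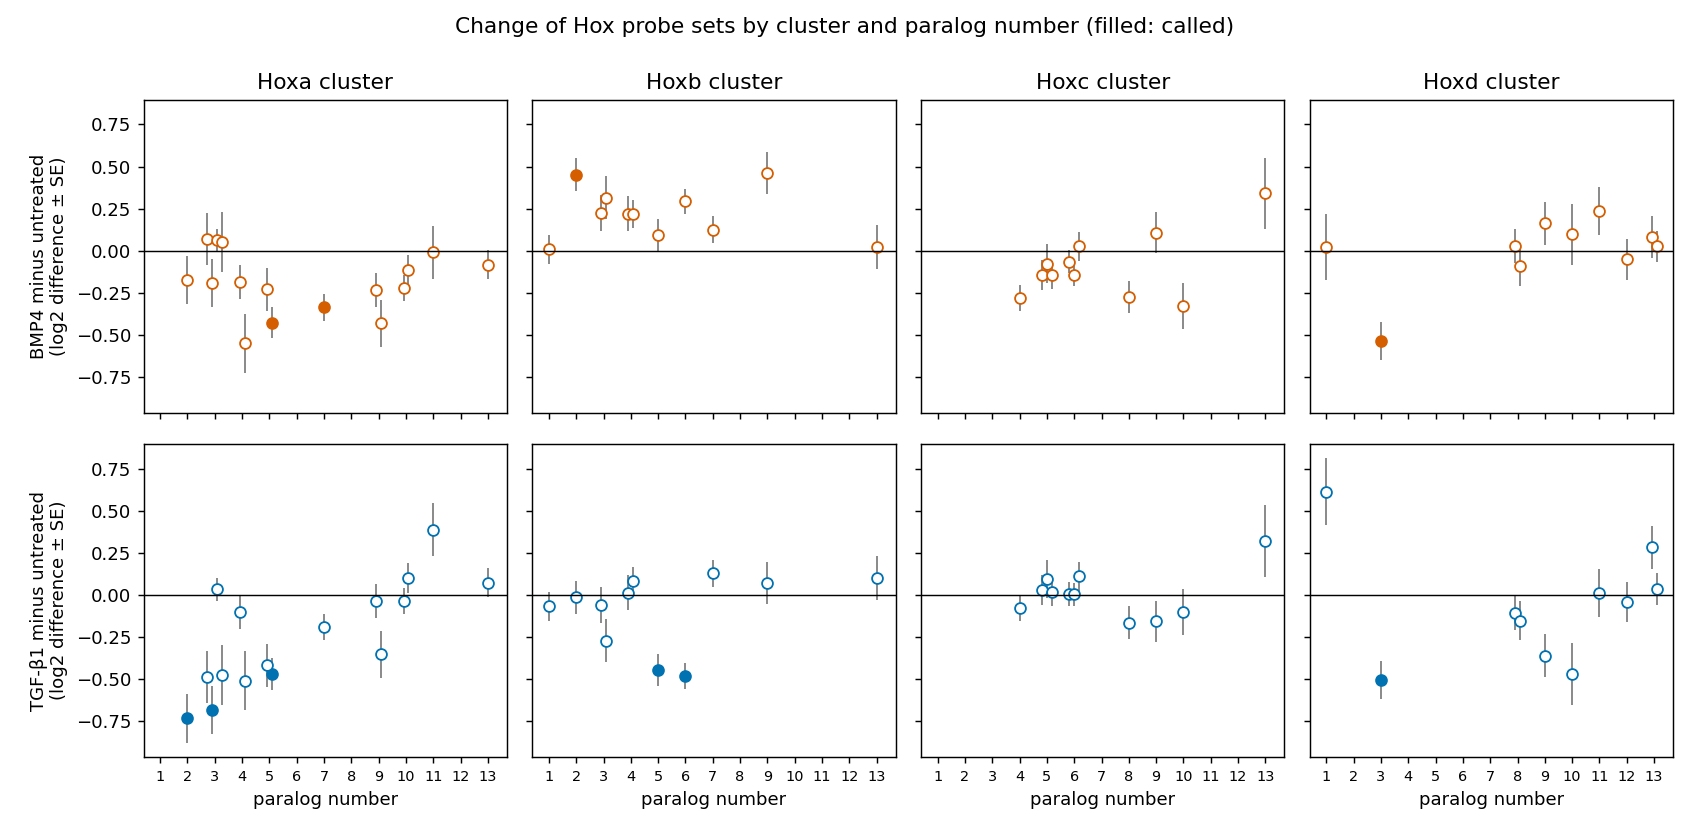
Log2 difference from untreated cultures, with its SE, of each Hox probe set against paralog number, for BMP4 in the upper row and TGF-β1 in the lower row, 1 column for each cluster, filled circles for called probe sets and several circles at a number for several probe sets of a gene. With BMP4 all 11 Hoxb points lie above 0, and with TGF-β1 the Hoxa points from Hoxa2 to Hoxa5 reach down to -0.73.

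TGF-β1 against untreated cultures gave 6 called probe sets of 48 (12.5%), all lower, against 4.43% of all probe sets called, 1.83% higher and 2.6% lower. They stood for Hoxa2, Hoxa3, Hoxa5, Hoxb5, Hoxb6 and Hoxd3, all of paralog groups 2 to 6. Hoxa2, the gene that gives the second branchial arch its skeletal identity, had the largest fall of any Hox probe set against untreated cultures. It read 0.42, 0.52 and -0.02 on the untreated arrays and -0.54, -0.32 and -0.43 with TGF-β1, so the groups did not overlap although untreated replicate 3 stood apart from the other untreated arrays. The log2 difference was -0.73 ± 0.15 (SE), 1.66-fold lower, with an adjusted p of 0.0211, and the p lay between 0.0692 and 0.0842 without untreated replicate 1 or 2 or TGF-β1 replicate 1 or 3. Hoxa3, needed for the thymus, parathyroid and throat cartilages, has 4 probe sets. Its probe set 1429398_at read 0.33, 0.45 and 0.00 untreated and -0.59, -0.28 and -0.38 with TGF-β1, a difference of -0.68 ± 0.14 (SE), 1.60-fold lower (adjusted p 0.0265). Its call was lost on leaving out the same arrays as for Hoxa2, with p between 0.0802 and 0.101. Among the other Hoxa3 probe sets, 1427433_s_at gave -0.48 (adjusted p 0.119) and 1452421_at also -0.48 (adjusted p 0.184), while 1431392_at gave 0.03 (adjusted p 0.842) and varied little on any array.

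Hoxb6 and Hoxb5 are neighbouring genes of the Hoxb cluster that act at cervical and thoracic levels. Hoxb6 read 0.08, 0.00 and -0.11 in untreated cultures and -0.54, -0.45 and -0.48 with TGF-β1. Its replicates were close in both groups, and it fell by 0.48 on the log2 scale (SE 0.07), 1.40-fold, with an adjusted p of 0.00736. It was the only 1 of the 6 calls that no single left-out array removed, with p between 0.0089 and 0.0366. Hoxb5 read 0.19, 0.00 and -0.01 untreated and -0.35, -0.54 and -0.27 with TGF-β1. That is a difference of -0.45 ± 0.09 (SE), 1.36-fold lower (adjusted p 0.0274), which did not pass without untreated replicate 1 or 2 or TGF-β1 replicate 1 or 2, where p lay between 0.0567 and 0.0982. The adjoining Hoxb4 and Hoxb7 did not follow, since the Hoxb4 probe sets gave 0.01 and 0.08 and Hoxb7 gave 0.13, and none of these passed.

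Hoxa5 and Hoxd3 were called lower with each factor. With TGF-β1, Hoxa5 read -0.16, 0.00 and -0.14, all under the untreated arrays, and the difference was -0.47 ± 0.09 (SE), 1.38-fold lower (adjusted p 0.0211, and between 0.0654 and 0.0824 without untreated replicate 1 or 2 or TGF-β1 replicate 1 or 3). Its second probe set gave -0.42 (adjusted p 0.103). Hoxd3 read -0.06, 0.19 and -0.22, below every untreated array, for a difference of -0.51 ± 0.12 (SE), 1.42-fold lower (adjusted p 0.0378). The Hoxd3 call was lost in 7 of 9 fits with 1 array left out, those without untreated replicate 1 or 2, any one BMP4 array, or TGF-β1 replicate 1 or 3, with p between 0.0562 and 0.128. Both treatments were set against the same untreated arrays, so the 2 falls of each gene share those values. TGF-β1 against BMP4 gave -0.04 for Hoxa5 (95% limits -0.25 and 0.16) and 0.03 for Hoxd3 (95% limits -0.23 and 0.29). Only 1 Hox probe set was called with TGF-β1 without untreated replicate 1 or 2 or TGF-β1 replicate 1, and 2 without TGF-β1 replicate 3. Of all probe sets 2.18%, 2.36%, 2.01% and 1.93% were called in these fits, in that order.

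**Figure D3:**
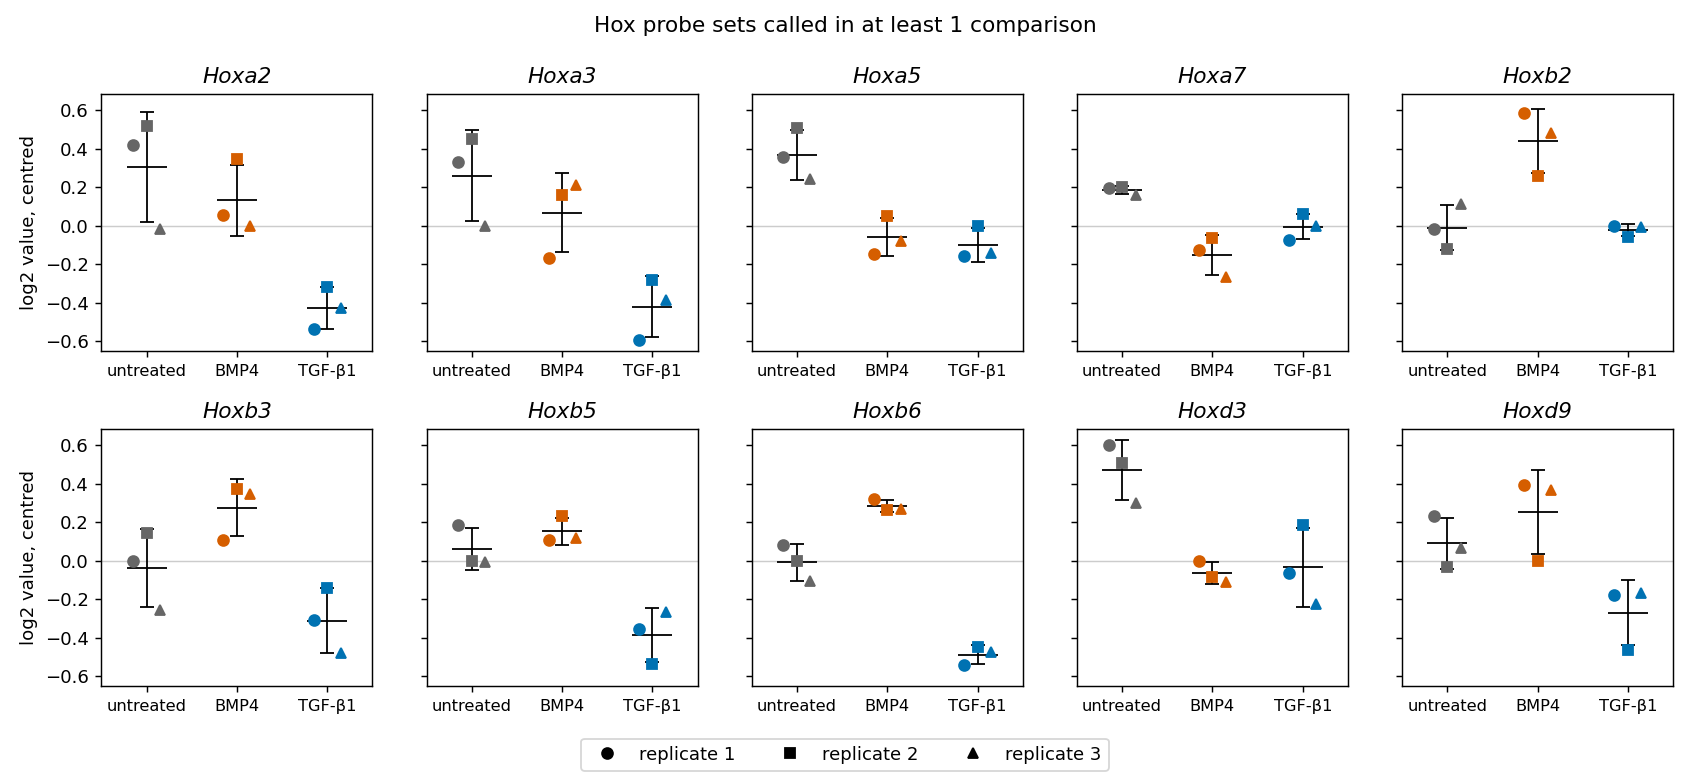
Log2 values, centred on each probe set's median, of the 10 Hox probe sets called in at least 1 comparison, on every array, with symbols for the replicate number and bars for the mean and SD of 3 arrays. Hoxb6 shows no overlap between any of the groups, and Hoxa5 and Hoxd3 lie lower in both treated groups than in untreated cultures.

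The same replicate numbers moved together in the untreated and TGF-β1 arrays, though only weakly for number 1. This comparison was therefore also fitted with the replicate number as a block, on all 9 arrays and so with the BMP4 arrays included. A block fit of only the groups compared, chosen after seeing the data, called 10 Hox probe sets, where 5.52% of all were called. The values below are from the fit of all 9 arrays. With the replicate block 14 Hox probe sets were called with TGF-β1 (29.2%, against 8.95% of all), 13 lower and 1 higher, where 5.22% of all were lower and 3.73% higher. The 13 stood for 10 genes, the 6 named above with 3 probe sets of Hoxa3 and both of Hoxa5, and also Hoxa4, Hoxa9, Hoxd9 and Hoxd10. Hoxa4 (1427354_at), at -0.51 ± 0.18 (SE), had an adjusted p of 0.148 without the block and 0.0114 with it. Hoxd1, which is known for its role in sensory neurons, was the Hox probe set with the largest rise. Its TGF-β1 arrays, at 0.08, 0.94 and 0.38, lay above the untreated ones at -0.21, 0.00 and -0.23, but spread widely. The rise of 0.61 ± 0.20 (SE), or 1.53-fold, had an adjusted p of 0.123 without the block and 0.0128 with it. Arrays did not overlap, with TGF-β1 lower, for 12 Hox probe sets (25%, against 12% of all), and with TGF-β1 higher for 2 (4.17%, against 9.87% of all), Hoxa11 and Hoxd1. An unadjusted p under 0.05 was reached by 17 of the 48 (35.4%, against 18.7% of all).

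By region, anterior probe sets had a median difference of -0.27 with TGF-β1 and 9 of 11 were below 0, the exceptions being Hoxd1 and Hoxa3 1431392_at. Central probe sets had a median of -0.09 and posterior ones of 0.01, with 9 of 17 posterior probe sets above 0. Over all probe sets the median was 0.01. By cluster the median was lowest in Hoxa, at -0.27 with 12 of 16 probe sets below 0, while medians were -0.01 in Hoxb, 0.01 in Hoxc and -0.07 in Hoxd. Of the calls without the block, 3 were in Hoxa, 2 in Hoxb and 1 in Hoxd. Region and cluster overlap here. The anterior median was -0.48 in Hoxa, -0.06 in Hoxb and 0.05 in Hoxd, and the central Hoxa median was -0.42. Probe sets on the same arrays are correlated. Among the 6 posterior Hoxa probe sets the values ran from -0.35 for Hoxa9 to 0.39 for Hoxa11.

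TGF-β1 against BMP4 compares the 2 factors directly. No untreated array enters the difference itself. The untreated arrays do enter its SE and p, since the variance was estimated from all groups together. Lower with TGF-β1 were 6 of 48 Hox probe sets (12.5%) and none was higher, against 6.91% of all probe sets called, 3.49% lower and 3.41% higher. They stood for Hoxa2, Hoxb2, Hoxb3, Hoxb5, Hoxb6 and Hoxd9, so 4 of the 6 were of the Hoxb cluster. Hoxb6 had the largest change of any Hox probe set in the 3 comparisons, with BMP4 arrays at 0.32, 0.27 and 0.27 and the TGF-β1 arrays given above. The difference was -0.77 ± 0.07 (SE), 1.71-fold lower, with an adjusted p of 0.000274, and no left-out array took it over 0.00223. Untreated cultures lay between the treated groups, and the rise with BMP4 alone, 0.29 ± 0.07 (SE), had an adjusted p of 0.0516 without the block. Hoxb5, with BMP4 arrays at 0.11, 0.23 and 0.12, differed by -0.54 ± 0.09 (SE), 1.45-fold lower (adjusted p 0.00718), and it too kept its call whichever array was left out, with p up to 0.0343.

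Hoxb2 was near 0 on the TGF-β1 arrays (0.00, -0.06 and -0.01), as on the untreated ones, and differed from BMP4 by -0.46 ± 0.10 (SE), 1.38-fold lower, with an adjusted p of 0.0188. That call was lost without BMP4 replicate 1 or 3 or any one TGF-β1 array, with p between 0.0541 and 0.0767. Hoxb3 (1456229_at), an anterior gene active in hindbrain and neck, read 0.11, 0.38 and 0.35 with BMP4 and -0.31, -0.14 and -0.48 with TGF-β1, and the groups were clearly apart. Its difference was -0.59 ± 0.13 (SE, adjusted p 0.021, and between 0.0654 and 0.0853 without BMP4 replicate 2 or 3 or TGF-β1 replicate 1 or 3). The other Hoxb3 probe set, 1427605_at, gave -0.28 ± 0.11 (SE, adjusted p 0.166). Hoxa2 read 0.05, 0.34 and 0.00 with BMP4 and differed by -0.56 ± 0.15 (SE), 1.47-fold lower, just inside the threshold (adjusted p 0.0471). Only the fits without untreated replicate 2 or 3 kept the Hoxa2 call, and p in the others lay between 0.0621 and 0.164. Hoxd9, which takes part in limb and lumbosacral patterning, was the only posterior gene called in a treatment comparison without the block. It read 0.39, 0.00 and 0.37 with BMP4 and -0.18, -0.47 and -0.17 with TGF-β1, and the difference was -0.52 ± 0.13 (SE), 1.44-fold lower (adjusted p 0.0379, and between 0.0548 and 0.144 without untreated replicate 3, BMP4 replicate 1 or 3, or any one TGF-β1 array). Leaving out BMP4 replicate 3 or TGF-β1 replicate 1 gave 3 called Hox probe sets, and leaving out TGF-β1 replicate 3 gave 2.

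With the replicate block this comparison called 13 Hox probe sets (27.1%, against 11.7% of all), 12 lower and 1 higher, where 6.11% of all were lower and 5.55% higher. Besides the 6 genes above, the lower ones took in Hoxa3, Hoxb9 and Hoxd10, and Hoxd1 was higher. Without the block Hoxd1 had the largest rise that did not pass (0.59 ± 0.20, SE, adjusted p 0.118, and 0.0107 with the block). The largest fall that did not pass was that of Hoxd10, a gene of lumbosacral and hindlimb patterning, with TGF-β1 arrays at -0.42, -0.63 and 0.00 against 0.46, -0.09 and 0.27 with BMP4 (-0.56 ± 0.18, SE, adjusted p 0.109, and 0.0128 with the block). By cluster, 9 of 11 Hoxb probe sets were below 0 (median -0.28) and 9 of 11 Hoxc probe sets above 0 (median 0.15), all 8 central Hoxc probe sets among them, against a median of 0.01 over all probe sets. Arrays did not overlap, with TGF-β1 lower, for 10 Hox probe sets (20.8%, against 13.5% of all) and with TGF-β1 higher for 8 (16.7%, against 12% of all).

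No Hoxc probe set and, apart from Hoxd9, no posterior probe set was called by limma in any of the 3 treatment comparisons without the block. At an unadjusted p under 0.05 there were 3 of 11 Hoxc probe sets with BMP4, 0 with TGF-β1 and 1 between the factors. Of the 17 posterior ones there were 5, 5 and 6, in the same order. Of all probe sets 17.1% reached it with BMP4, 18.7% with TGF-β1 and 20% between the factors. For the 11 Hoxc probe sets the 95% limits of the difference from untreated cultures ran from -0.63 to 0.81 with BMP4 and from -0.43 to 0.79 with TGF-β1. For all Hox probe sets that were not called, the 95% limits stayed within a 2-fold change either way for 44 of 44 with BMP4, 41 of 42 with TGF-β1 and 41 of 42 between the factors. Hoxd1 was the exception in both of the latter, with an upper limit of 1.05 against untreated cultures and 1.03 against BMP4. Of the 33 Hox genes, 22 rest on a single probe set and 11 on several, and where a gene with a called probe set had more than 1, the others did not pass in that comparison without the block.

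Transcripts of the clusters that the rule left out are given for completeness, none of which was called in the 3 comparisons without the block. A pair of probe sets shared by Hoxd3 and Hoxd4 gave -0.27 and -0.44 with BMP4 and -0.05 and -0.33 with TGF-β1, with adjusted p from 0.121 to 0.828. Hoxd3os1, antisense to Hoxd3, had probe sets at -0.73 (1460056_at, adjusted p 0.117 without the block and 0.0236 with it) and -0.20 with BMP4. With TGF-β1 1460056_at gave -0.59 (adjusted p 0.203 without the block and 0.0527 with it). The probe sets of Hoxb5os, of Hoxa11os and of Hoxb7 and Hoxb8 together did not pass with or without the block. Since the arrays cannot assign a cross-hybridising signal to 1 transcript, probe sets shared by several genes were not read as evidence for any one of them.

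Proteins that work with or upstream of Hox genes were read from lists of other genes, using the probe set with the largest variance for each gene. Of all 18193 genes taken this way, 7.96% were called with BMP4, 6.75% with TGF-β1 and 10.1% between the factors without the block. With the block the shares were 13.1%, 13.4% and 16.8%. Of 9 Hox cofactors of the Pbx, Meis and Pknox families 8 were measured, and 1 was called, Pbx3, which was higher with BMP4 (0.50 ± 0.10, SE, 1.42-fold, adjusted p 0.0133) and lower with TGF-β1 than with BMP4 (-0.79 ± 0.10, SE, adjusted p 0.00098). The 7 other measured cofactors did not pass in any of the 3 comparisons without the block. With the block Meis1 (-0.78, adjusted p 0.158 without and 0.0337 with it) and Meis2 (-0.80, 0.146 and 0.0465) were lower with BMP4. The replicate numbers were not shown to pair the BMP4 and untreated arrays. Of 26 upstream regulators, which included the Cdx genes, Polycomb and trithorax genes and the retinoic acid pathway, 25 were measured. With BMP4, 1 was higher and 2 lower without the block, a share of the list not far from that of all genes. The block added Rarg as higher with BMP4 (0.68, adjusted p 0.0521 without and 0.00251 with it). Retinoic acid is a known activator of anterior Hox genes. Cyp26b1, an enzyme that degrades it, was higher with BMP4 by 2.13 ± 0.18 (SE), or 4.39-fold (adjusted p 0.000211), and Aldh1a2, the enzyme that makes it, had a difference of -1.14 ± 0.19 (SE, 2.20-fold lower, adjusted p 0.00662). Rarb, a retinoic acid receptor that is itself a target of the pathway, had a difference of -1.02 ± 0.25 (SE, 2.02-fold lower, adjusted p 0.041). Without the block, the call among them with TGF-β1 was Aldh1a2, at -0.88 ± 0.19 (SE, 1.84-fold lower, adjusted p 0.0283), and Cyp26b1 at 0.63 did not pass (adjusted p 0.0892). Between the factors, Cyp26b1 was lower with TGF-β1 than with BMP4 (2.83-fold, SE of the log2 difference 0.18, adjusted p 0.000992) and Rara, another receptor, was higher (0.33 ± 0.08, SE, adjusted p 0.044). With the replicate block, 1 was higher and 2 lower with TGF-β1, the added genes being Cyp26a1, another enzyme that degrades retinoic acid (1.18 ± 0.45, SE without the block, adjusted p 0.192 without and 0.00854 with it), and the Polycomb gene Ring1 (-0.36 ± 0.09, SE without the block, adjusted p 0.0571 and 0.034). Between the factors the block gave 2 higher and 3 lower, adding Cyp26a1 (1.22, adjusted p 0.157 and 0.00482), Rarg (-0.59, adjusted p 0.0765 and 0.00387) and Gmnn (-0.30, adjusted p 0.0509 and 0.0419). None of the Cdx genes on the list was called with or without the block. The part of these genes in the Hox changes was not tested.

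Markers of the cell types that the dissection could hold also moved with treatment. Of 10 sclerotome markers, all measured, 6 were lower with BMP4 (Meox1, Meox2, Pax1, Tbx18, Twist1 and Uncx, from -0.56 to -1.61) and none was called with TGF-β1 without the block. Their mean centred value lay between 0.01 and 0.46 in untreated cultures, between -0.49 and -0.45 with BMP4, and between -0.01 and 0.17 with TGF-β1. Other calls with BMP4 were Sox2 of 12 neural genes (1.44), Myf5 of 7 skeletal muscle genes (0.83) and Wt1 of 3 measured nephric genes (-1.42). With the block Elavl4, Hand2 and Kdr were higher with BMP4 as well, and Foxc1, Pax9 and Nkx6-1 lower. With TGF-β1 the call without the block was Cd68 (-0.46) of 5 macrophage genes. With the block the skeletal muscle genes Myf5 (-0.42, adjusted p 0.0618 without and 0.00936 with it), Myod1 (-0.37, 0.0529 and 0.0329) and Pax7 (-0.43, 0.133 and 0.0208) were lower with TGF-β1 as well, 3 of 7, as were Lyz2 (-0.43, 0.578 and 0.0228) and Pax1 (-0.51, 0.308 and 0.026), and Sox2 was higher (0.49, 0.231 and 0.0342). Between the factors, lower with TGF-β1 without the block were Foxc2, Sox2, Hand2, Myf5, Erbb3 and Cd68, and higher were Meox1, Tbx18, Twist1, Uncx, Nkx6-1 and Wt1. The block added Elavl4, Isl1 and Pax3 as lower and Foxc1, Pax1 and Pax9 as higher. None of 6 endothelial, 4 erythroid or 2 notochord genes was called in any comparison without the block, although the mean of the erythroid genes was 1.24 and 1.36 on untreated replicates 1 and 3 and between -0.59 and 0.15 on the other 7 arrays. Because the values are centred, absence of any of these markers cannot be judged, and their part in the Hox differences was not tested.

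Hox values also followed the replicate number, which may stand for a repeat of the whole experiment. The arrays numbered 2 were compared with the mean of replicates 1 and 3, as an average over the 3 groups. By this average all 17 posterior probe sets were lower, with a median of -0.10 and a range from -0.41 to -0.03, though not in every single group. The anterior probe sets went the other way, with 9 of 11 higher and a median of 0.21, and the central ones were even at 10 and 10. Over all probe sets 20499 were higher, 24538 lower, and the median was -0.01. Deviations below the group mean on replicate 2 in all 3 groups were found for 9 of the 17 posterior probe sets, those of Hoxa9, Hoxb9, Hoxb13, Hoxc9, Hoxc10, Hoxc13, Hoxd9, Hoxd10 and Hoxd11, where 22.3% of all probe sets did so. Deviations above the mean in all 3 groups were found for 7 of the 11 anterior probe sets, where 19.5% of all did so. After quantile normalization 17 of 17 posterior probe sets were still lower and 10 of 11 anterior ones higher. Replicate 2 was not the lowest number for every posterior gene listed. The mean deviations on replicates 1, 2 and 3 were 0.18, -0.05 and -0.14 for Hoxb9 and -0.16, -0.16 and 0.33 for Hoxc13. Here too the counts are of correlated probe sets on the same arrays.

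**Figure D4:**
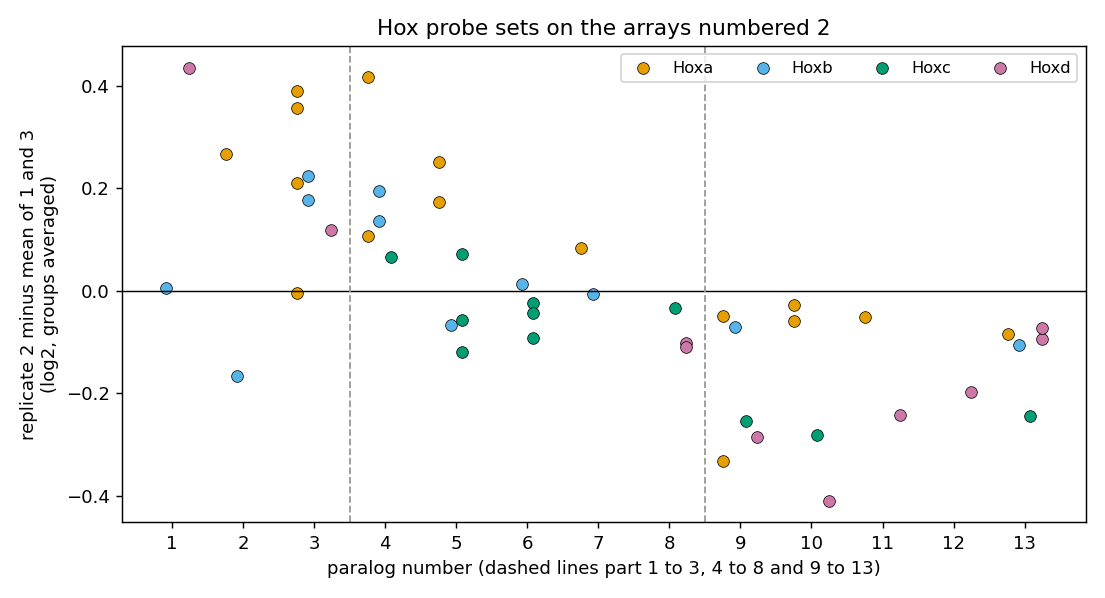
Mean log2 difference between the arrays numbered 2 and those numbered 1 and 3, taken within groups, of each of the 48 Hox probe sets against paralog number, with colours for the clusters and dashed lines between the anterior, central and posterior paralogs. All 17 posterior points lie below 0 and 9 of 11 anterior points lie above it.

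Tested singly with the group in the model, no Hox probe set passed for any difference among the 3 replicate numbers (2.38% of all probe sets did), while 16 reached an unadjusted p under 0.05 (33.3%, against 17.6% of all). The 5 smallest adjusted p-values were those of Hoxa9 (1455626_at, 0.059), Hoxa4 (1427354_at, 0.0659), Hoxa3 (1427433_s_at, 0.0863), Hoxc13 (0.0947) and Hoxd1 (0.0968). With untreated replicate 1 left out, 2 Hox probe sets were called. Setting replicate 2 against the other numbers called 4 (8.33%, against 4.13% of all). Hoxd1 was higher on the arrays numbered 2 by 0.44 (adjusted p 0.0445), Hoxa4 by 0.42 (adjusted p 0.0227) and Hoxa3 by 0.36 (adjusted p 0.033), and Hoxa9 differed by -0.33 (adjusted p 0.0211).

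Markers moved with the replicate number as well. Replicate 2 against the other numbers, in the same fit, called 6.33% of genes taken with 1 probe set each. On the arrays numbered 2 the neuronal genes Tubb3 (-1.05, adjusted p 0.000177), Stmn2 (-0.81, adjusted p 0.000684) and Elavl4 (-0.65, adjusted p 0.017) were lower, 3 of 12 neural genes, and the median of those 12 was -0.23. The sclerotome genes Pax1 (0.62), Pax9 (0.46) and Foxc1 (0.49) were higher, 3 of 10 on that list, as were the macrophage genes Lyz2 (0.96), Adgre1 (0.41) and Csf1r (0.29), 3 of 5. Pax3 (-0.50) and Des (-0.38) of the muscle list, Lhx9 (-0.44) of the limb list, Sox10 (-0.57) of the neural crest list and Kdr (-0.47) of the endothelial list were lower. Cyp26a1 was higher by 1.13 (adjusted p 0.00882) and Rarg by 0.41 (adjusted p 0.0239). The part of these cell types, or of the axial level dissected, in the Hox pattern was not tested. Without the 3 arrays numbered 2 no Hox probe set was called with BMP4 (2.66% of all) or TGF-β1 (1.97% of all) against untreated cultures. Between the factors 4 Hox probe sets were called without those arrays.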

How the data were processed

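RNA of 9 cultures, 3 in each group, was amplified in 2 cycles with oligo dT primers and hybridized to Affymetrix mouse genome arrays, a protocol that favours the 3′ end of transcripts. The authors normalized the arrays by RMA. The deposited log2 values hold 45101 probe sets, and in every one the median over the 9 arrays is 0 (tolerance 1e-06), so signal over background is unknown and no filter on low signal could be set. The number of arrays limits the precision. No pair of arrays held identical values.

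Differences were fitted with limma 3.58.1 in R 4.3.3 on all 9 arrays after 64 control probe sets were left out, with Benjamini-Hochberg adjustment over 45037 probe sets (6 residual and 4.01 prior degrees of freedom, median residual SD 0.129). Tests were two-sided and the method was tested on simulated data. The simulated errors were independent between arrays, so that test cannot show how the fit behaves where same-numbered arrays deviate together. Probe sets were named from the platform annotation, in which 34945 carry 1 symbol, 932 several and 9160 none. All 48 Hox probe sets were found in RefSeq by gene identifier, with no change of symbol. Figures were drawn with matplotlib 3.10.9 in Python 3.11.15.

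Samples were grouped by their titles. The labels place treatment after overnight culture, while the culture methods describe factors added once cells had attached. Same-numbered arrays deviated together from their group means for TGF-β1 and untreated (correlation over all probe sets 0.14, 0.49 and 0.28 for numbers 1, 2 and 3) and for TGF-β1 and BMP4 (0.29, 0.50 and 0.38), so the replicate block is given with those comparisons. For BMP4 and untreated they did not for every number (-0.05, 0.50 and 0.24), while over the Hox probe sets alone the correlations were 0.30, 0.66 and 0.28. The block for that comparison is given with the alternatives. The study's methods describe 3 separate set-ups, which is where a pairing by number would come from.

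The members and lists were chosen with earlier results of these data known. Named are all called Hox probe sets, the largest rise and fall among those not called, other probe sets of called genes, the 5 smallest p-values by replicate number and called list members. Alternatives were the replicate block, other samples in the fit, scalings, variance models, filters and the study's unequal variance test. Protein sequences were not analysed here.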

Additional observations from a re-analysis of the deposited data

How the results depend on the processing

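None of 22 differences of named Hox probe sets changed sign in 462 alternative values, of which 344 stayed on the same side of the threshold, 103 lost a call and 15 gained one. Many of these alternatives could not change the sign, since they leave the difference itself as it was. Such are the block, the variance models, the filters, the study's test and fits that drop only arrays of the group not compared. Counts of called probe sets moved more. With BMP4 the count of 4 became 10 with the replicate block (3 higher, 7 lower, with 9.03% of all probe sets called). The block added Hoxb6 and Hoxb9 as higher and Hoxa4, Hoxa9, Hoxc4 and Hoxc10 as lower. With the block in a fit of only the groups compared, the BMP4 count was 6 (4.84% of all). Over all probe sets the replicate numbers were not shown to pair these arrays. Of 9 arrays, 6 correlated best with an array of their own number. The BMP4 count became 0 without the arrays numbered 2 (2.66% of all) and 1 with only the groups compared (3.59% of all). By the study's test it was 10 unadjusted (10.3% of all) and 0 after adjustment, as for all probe sets. With TGF-β1 the count of 6 became 14 with the replicate block (8.95% of all). It was 10 (5.52% of all) with the block in a fit of only the groups compared, chosen after seeing the data. With only those groups and no block it was 3 (2.6% of all). Without the arrays numbered 2 it was 0 (1.97% of all), and by the study's test adjusted 0, as for all probe sets. Between the factors the count of 6 became 13 with the replicate block in either fit, with 11.7% of all called on all 9 arrays. By the study's test it was 11 unadjusted and 0 adjusted. The study also asked for a 2-fold change, which these counts of its test leave out. No Hox difference on all 9 arrays reached 2-fold. The count by replicate number, 0, became 2 over probe sets with 1 symbol and 4 for replicate 2 against the others. Leaving out single arrays gave 0 to 4 calls with BMP4, 1 to 7 with TGF-β1, 2 to 6 between the factors and 0 to 2 by replicate number. The cause of these shifts was not tested beyond the fewer arrays in some fits. Array medians were already 0, so subtracting them changed nothing, and quantile normalization gave 5, 6 and 8 calls in the 3 treatment comparisons. Signal over background is unknown for every Hox probe set, so a change of a gene near background cannot be told from one well above it.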
